A study of Mus musculus with 8 samples.

Results

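Nodal and activin are secreted ligands of the TGF-beta family, and the 9 genes described here encode parts of their pathway: the ligand Nodal, its secreted inhibitors Lefty1 and Lefty2, the co-receptor Tdgf1 (also called Cripto), the receptor Acvr2b, the signal transducers Smad2 and Smad3, and the feedback inhibitors Smad7 and Skil. They were chosen by name as genes and targets of the pathway, with earlier results of these data known. All 9 were found among the 17732 gene identifiers kept from the deposited tables, and all 9 passed the filter on low values (at least 1 FPKM on average across the 8 samples), which left 11271 genes. The samples were mouse E14TG2a embryonic stem cells, a line of the 129/Ola strain, grown without feeder cells on gelatin in serum with leukaemia inhibitory factor and with CHIR99021 and PD0325901, which inhibit GSK3 and MEK. The 4 groups were wild type (WT) and the enhancer knockouts E1-KO, E2-KO and E3-KO, made with CRISPR/Cas9. Each of the 4 groups held 2 replicates, called biological duplicates in the labels. The labels give neither the positions of the deleted enhancers nor whether a knockout line was 1 clone, and edited control cells were not analysed here. A difference from WT therefore cannot be told apart from a difference in clone, culture or library batch. The series asks how associations of promoters and enhancers bear on Sox2, a pluripotency factor, and Sox2 was lower than WT in all 3 knockouts (log2 fold changes of -1.16, -0.34 and -0.50 in E1-KO, E2-KO and E3-KO).

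In this pathway, Nodal or activin binds a pair of receptor kinases of types I and II, and Nodal also needs the co-receptor Cripto. The receptors phosphorylate SMAD2 and SMAD3, which join SMAD4 and, with partners such as FOXH1, bind DNA and raise target genes. Lefty1, Lefty2, Smad7 and Skil are well-known targets that act back as inhibitors, and Nodal raises its own gene. Mouse embryonic stem cells make Nodal themselves, and the pathway is known for its role in the exit from naive pluripotency and in mesendoderm formation.

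Levels are given as FPKM, fragments corrected for transcript length and library size. In bulk RNA a lower level in every cell and fewer cells with a high level cannot be told apart. The deposited values summed to 454974 to 532007 FPKM per library, which says little about depth because the unit is already corrected for library size. Absolute depth was unknown. Relative depth, estimated from steps between low values, was 0.787 to 1.01 of that of WT replicate 1. Stem cell identity was checked on 8 markers, all above 0 in every sample, with a summed level of 2195 to 2303 FPKM in WT and 1798 to 2391 FPKM in the knockouts. These sums hold markers that went both ways: 1 rose and 4 fell in E1-KO, 3 rose and 2 fell in E2-KO, and 1 rose and 3 fell in E3-KO, with Utf1 higher and Dppa5a and Sox2 lower in all 3. The summed level of 7 fibroblast markers was 1.14 to 1.57 FPKM in WT and 2.40 to 3.81 FPKM in the knockouts. Of these, 6 of the 7 were below 1 FPKM throughout and 5 were at 0 in at least 1 sample. The other, Thy1, rose in all 3 knockouts. For the 5 of 7 primitive endoderm markers that had a value, the summed level was 1.59 to 1.65 FPKM in WT and 0.736 to 4.69 FPKM in the knockouts, with both E3-KO samples above WT and 2 of the 5 at 0 in at least 1 sample. The 7 trophectoderm markers summed to 51.0 to 54.1 FPKM in WT, 33.3 to 38.7 FPKM in E1-KO and E2-KO, and 53.7 to 72.3 FPKM in E3-KO, with 3 of them at 0 in at least 1 sample. Of the 4 tested, Tfap2c and Krt18 fell in E1-KO and E2-KO, while Krt8 rose in E1-KO and E3-KO and Gata3 in E3-KO. The 6 mesendoderm markers summed to 12.8 to 14.2 FPKM in WT and 6.04 to 8.50 FPKM in the knockouts, with 2 of them at 0 in at least 1 sample. The lower sum came mostly from Gsc and T, while Mixl1 lay above both WT samples in all 6 knockout samples. Eomes lay above both WT samples in E1-KO and below both in E2-KO. The part of these cell type markers in the results below was not tested.

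Against WT, every member that passed the test was lower in the knockouts. In E1-KO 5 of the 9 members fell (Nodal, Lefty2, Acvr2b, Smad3 and Smad7), where 23% of all tested genes were called lower and 38% were called in either direction. In E2-KO 6 of 9 fell (Lefty1, Lefty2, Acvr2b, Smad3, Smad7 and Skil), with 22% of all tested genes called lower and 36.1% in either direction. In E3-KO 4 of 9 fell (Lefty2, Tdgf1, Acvr2b and Smad7), with 30.8% of all tested genes called lower and 44.7% in either direction. Lefty2, Acvr2b and Smad7 fell in all 3 knockouts, as did 13% of all tested genes, while none of the 9 rose in any, beside 15%, 14.2% and 13.9% of all tested genes called higher in E1-KO, E2-KO and E3-KO and 6.57% called higher in all 3. For 5 members (Lefty1, Lefty2, Acvr2b, Smad3 and Smad7) all 6 knockout samples lay below both WT samples, which held for 28.5% of all tested genes. The median log2 fold change of the 9 members was -0.51, -0.63 and -0.35 for the knockouts in numerical order, beside -0.062, -0.076 and -0.15 over all tested genes. The split of calls over all genes depended on the scaling: in E2-KO 1596 genes were called higher and 2476 lower, against 2066 and 1916 with median-ratio scaling, and in E3-KO 1568 and 3470, against 2376 and 2353. All calls come from limma-trend on log2(FPKM + 1) with a Benjamini-Hochberg adjusted p-value under 0.05. Of the 15 calls, 8 passed under every alternative tried (Lefty2 and Smad7 in all 3 knockouts, Acvr2b in E2-KO and E3-KO). The count in E1-KO was 2 without E1-KO replicate 1 or without WT replicate 2, and that in E2-KO was 4 without E2-KO replicate 1, WT replicate 1 or WT replicate 2.

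**Figure D1:**
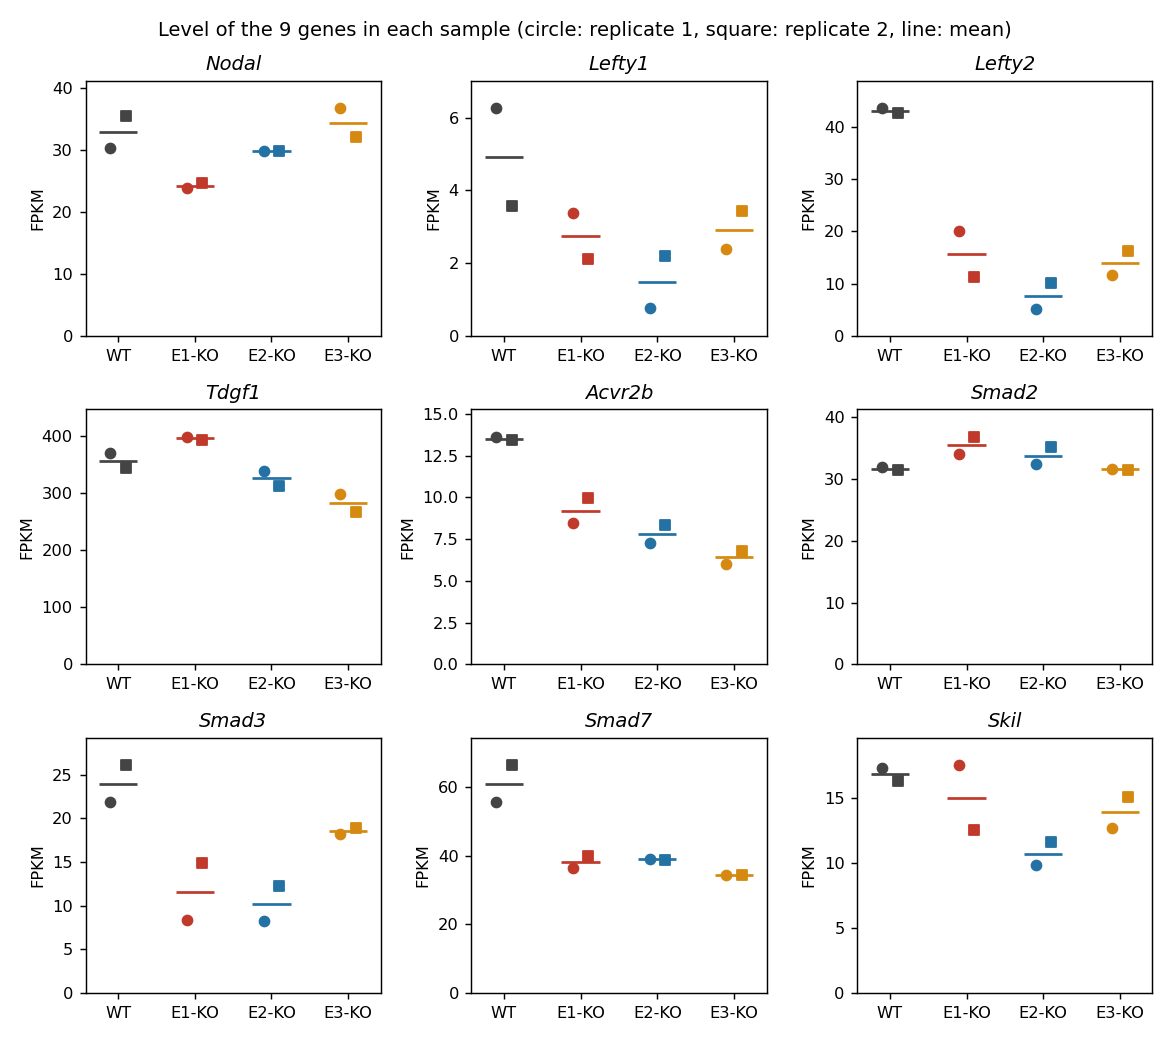
Level in FPKM (vertical axis, from 0) of each of the 9 genes in the 2 samples of WT, E1-KO, E2-KO and E3-KO, with circles for replicate 1, squares for replicate 2 and a line at the group mean. Lefty2 lies near 43 FPKM in both WT samples and at or below 20.03 FPKM in all 6 knockout samples, while Smad2 lies between 31.4 and 36.8 FPKM throughout.

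In WT the members spanned a wide range of levels per length. Tdgf1 was the most abundant at 356 ± 18.2 FPKM (SD, n = 2, as for all means here), followed by Smad7 (61.0 ± 7.56), Lefty2 (43.0 ± 0.622), Nodal (33.0 ± 3.64), Smad2 (31.7 ± 0.404), Smad3 (24.0 ± 2.97), Skil (16.8 ± 0.693), Acvr2b (13.5 ± 0.147) and Lefty1 (4.91 ± 1.9). The WT samples of Nodal and Smad2 overlapped. Between all other neighbours in this order the 2 pairs of WT samples did not overlap.

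Nodal, the ligand (chromosome 10, 61417972 to 61425338 on the plus strand of GRCm38), was measured at 30.4 and 35.5 FPKM in the 2 WT samples. It was 23.8 and 24.7 FPKM in E1-KO, 29.9 FPKM in both E2-KO samples, and 36.7 and 32.1 FPKM in E3-KO. E1-KO was the low group, E2-KO lay just below both WT samples, and E3-KO overlapped WT. In E1-KO the level fell by 0.42 on the log2 scale (standard error 0.112, limma-trend adjusted p = 0.0169). In E2-KO and E3-KO the log2 fold changes were -0.13 (95% interval -0.387 to 0.119) and 0.060 (-0.193 to 0.313), and neither passed. The call in E1-KO was lost without either E1-KO sample or without WT replicate 2 (limma-trend adjusted p-values up to 0.149, log2 fold changes of -0.53 to -0.31 over the fits that left out 1 sample).

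Lefty2, a secreted antagonist that blocks Nodal outside the cell (chromosome 1, 180893108 to 180899103 on the plus strand), showed the largest change of the 9 members. Its level was 43.5 and 42.6 FPKM in WT. It was 20.03 and 11.2 FPKM in E1-KO, 5.24 and 10.1 FPKM in E2-KO, and 11.6 and 16.3 FPKM in E3-KO. All 6 knockout samples were far below WT, and the replicates of each knockout were further apart than those of WT. The WT mean was 2.76, 5.61 and 3.08 times the mean of E1-KO, E2-KO and E3-KO. On the log2(FPKM + 1) scale the changes were -1.46, -2.40 and -1.58 (standard error 0.305 each; limma-trend adjusted p-values 0.00625, 0.000745 and 0.00341).

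Lefty1, the neighbouring and closely related antagonist (180935022 to 180938400 on the same strand), was the least abundant member. It was measured at 6.25 and 3.57 FPKM in WT, 3.39 and 2.11 FPKM in E1-KO, 0.781 and 2.19 FPKM in E2-KO, and 2.38 and 3.44 FPKM in E3-KO. No knockout sample reached the lower WT sample, although E1-KO replicate 1 and E3-KO replicate 2 came close. In E2-KO Lefty1 fell by 1.27 on the log2 scale (standard error 0.32, limma-trend adjusted p = 0.0147). The call was lost without E2-KO replicate 1 or without WT replicate 1 (-0.85 and -0.94, limma-trend adjusted p-values 0.0936 and 0.108). In E1-KO and E3-KO the log2 fold changes of Lefty1 were -0.64 (95% interval -1.36 to 0.0836) and -0.57 (-1.3 to 0.152), which did not pass.

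Both Lefty values depend on how shared reads were assigned. Of the windows of 50 bases in the longest annotated Lefty1 transcript, 17.9% (281 of 1571) also occur in Lefty2 transcripts, and 11.6% (282 of 2424) of those of Lefty2 occur in another gene, nearly all in Lefty1. The Lefty1 identifier also had a second row in the tables, placed among genes of the opposite strand between H3f3a and Ephx1, with 0.174 to 0.784 FPKM over the 8 samples. That row was not used. With both rows summed, the counts of members called were the same in all 6 comparisons.

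Tdgf1, which encodes the membrane-bound co-receptor Cripto (chromosome 9, 110939603 to 110946158 on the minus strand), stayed high in all samples. It was 369 and 344 FPKM in WT, 398 and 393 FPKM in E1-KO, 338 and 312 FPKM in E2-KO, and 298 and 266 FPKM in E3-KO. E1-KO lay above both WT samples, while E2-KO and E3-KO lay below them. In E3-KO Tdgf1 fell by 0.34 on the log2 scale (standard error 0.108, limma-trend adjusted p = 0.0307). The call was lost with median-ratio scaling, which moved the median of all genes in E3-KO from -0.15 to 0.0056 and the change of Tdgf1 to -0.16 (limma-trend adjusted p = 0.225). Without E3-KO replicate 2, or without either sample of E1-KO or WT, the limma-trend adjusted p-value was 0.0618 to 0.182. In E1-KO the log2 fold change of 0.15 did not pass and turned to -0.039 with quantile normalization, and in E2-KO that of -0.13 did not pass and was -0.43 with quantile normalization (limma-trend adjusted p = 0.0102). A pseudogene, Tdgf1-ps1, shares 12.5% of the 50-base windows of the Tdgf1 transcript, so part of its value is uncertain.

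Acvr2b, a type II receptor kinase for activin and Nodal (chromosome 9, 119402118 to 119434995 on the plus strand), was at 13.6 and 13.4 FPKM in WT. It was 8.47 and 9.96 FPKM in E1-KO, 7.26 and 8.37 FPKM in E2-KO, and 6.00 and 6.81 FPKM in E3-KO. No knockout sample reached WT, and E3-KO was the lowest group. The log2 fold changes were -0.51, -0.72 and -0.97 (standard error 0.13 each; limma-trend adjusted p-values 0.0144, 0.00349 and 0.000612). In E1-KO the call was lost with quantile normalization (-0.37, limma-trend adjusted p = 0.054) and without E1-KO replicate 1 or either WT sample (limma-trend adjusted p-values 0.0766 to 0.115).

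Smad3 encodes one of the transducers that the receptors phosphorylate (chromosome 9, 63646767 to 63757994 on the minus strand). It was at 21.9 and 26.1 FPKM in WT, 8.32 and 14.9 FPKM in E1-KO, 8.20 and 12.2 FPKM in E2-KO, and 18.1 and 18.9 FPKM in E3-KO. The samples of E1-KO and E2-KO overlapped each other and lay below E3-KO, which in turn lay below WT. Smad3 fell in E1-KO by 1.03 and in E2-KO by 1.17 on the log2 scale (standard error 0.246 each, limma-trend adjusted p-values 0.0111 and 0.00685). In E3-KO the log2 fold change was -0.35 (95% interval -0.906 to 0.209) and did not pass. Leaving out E1-KO replicate 1 took the change in E1-KO to -0.65 (limma-trend adjusted p = 0.0756). Without WT replicate 2 the limma-trend adjusted p-values were 0.0801 in E1-KO and 0.0562 in E2-KO.

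Smad2, the other receptor-activated transducer (chromosome 18, 76241580 to 76310963 on the plus strand), was the most even member. It was 31.9 and 31.4 FPKM in WT, 34.0 and 36.8 FPKM in E1-KO, 32.3 and 35.2 FPKM in E2-KO, and 31.6 and 31.5 FPKM in E3-KO. The log2 fold changes of 0.16, 0.088 and -0.0053 did not pass, and their 95% intervals were -0.0589 to 0.371, -0.127 to 0.303 and -0.22 to 0.21. A fall of the size seen for Smad3 in E1-KO or E2-KO lies outside all 3 intervals. The small value in E3-KO changed sign with the scaling (0.054 to 0.17 under 3 other scalings).

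Smad7, which encodes an inhibitory SMAD that acts on the receptors (chromosome 18, 75367529 to 75395935 on the plus strand), fell by a like amount in all 3 knockouts. It was at 55.7 and 66.4 FPKM in WT, 36.4 and 39.9 FPKM in E1-KO, 39.0 and 38.9 FPKM in E2-KO, and 34.3 and 34.2 FPKM in E3-KO. The highest knockout sample lay well below the lower WT sample. The log2 fold changes were -0.66, -0.63 and -0.81 (standard error 0.108 each; limma-trend adjusted p-values 0.00204, 0.00288 and 0.000612).

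Skil encodes SnoN, a repressor that binds SMAD complexes in the nucleus (chromosome 3, 31095058 to 31122577 on the plus strand). Its level was 17.3 and 16.3 FPKM in WT, 17.5 and 12.5 FPKM in E1-KO, 9.80 and 11.6 FPKM in E2-KO, and 12.7 and 15.0 FPKM in E3-KO. E1-KO replicate 1 was the highest of all 8 samples, so E1-KO overlapped WT. In E2-KO Skil fell by 0.61 on the log2 scale (standard error 0.164, limma-trend adjusted p = 0.0196), a call that was lost with quantile normalization (-0.48, limma-trend adjusted p = 0.0573) and without E2-KO replicate 1 or either WT sample (limma-trend adjusted p-values 0.0773 to 0.103). In E1-KO and E3-KO the log2 fold changes of -0.17 and -0.26 did not pass.

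**Figure D2:**
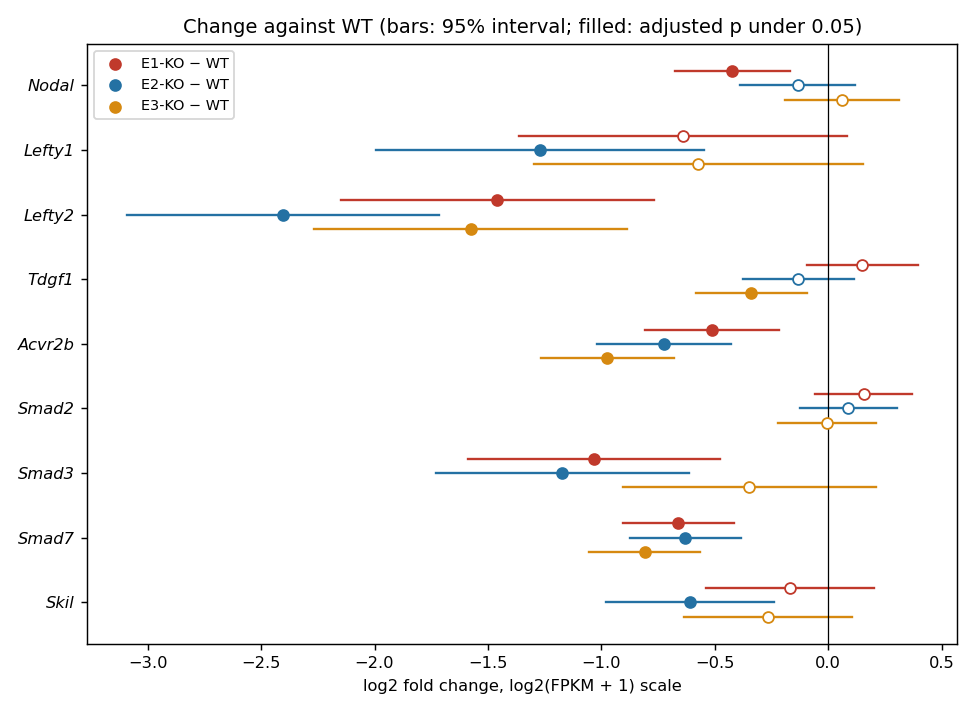
Log2 fold change against WT on the log2(FPKM + 1) scale (horizontal axis) for the 9 genes in E1-KO, E2-KO and E3-KO, with bars for the 95% interval and filled points where the limma-trend adjusted p-value was under 0.05. Filled points lie left of 0 in every case, furthest for Lefty2 in E2-KO (-2.40).

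Acvr2b and Smad3 both fell in E1-KO and E2-KO, and their promoters are shown here to let the sequence next to each start be read beside these values. The sequences are from RefSeq (build GRCm38.p6, read along each gene's own strand), and of the 9 members 4 had an entry (Nodal, Tdgf1, Acvr2b and Smad3). Capitals mark matches on either strand to the SMAD word CAGAC, to the GC-rich SMAD word GGCGC and to its relative GGCCG. The Acvr2b stretch is chr9:119401928-119402117 on the plus strand and ends before the first base that GENCODE places in the gene. The Smad3 stretch is chr9:63757995-63758244 on the minus strand.
Acvr2b: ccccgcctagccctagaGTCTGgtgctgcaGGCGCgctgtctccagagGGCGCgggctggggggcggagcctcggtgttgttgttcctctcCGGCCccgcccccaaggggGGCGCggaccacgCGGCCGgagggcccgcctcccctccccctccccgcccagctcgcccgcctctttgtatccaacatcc
Smad3: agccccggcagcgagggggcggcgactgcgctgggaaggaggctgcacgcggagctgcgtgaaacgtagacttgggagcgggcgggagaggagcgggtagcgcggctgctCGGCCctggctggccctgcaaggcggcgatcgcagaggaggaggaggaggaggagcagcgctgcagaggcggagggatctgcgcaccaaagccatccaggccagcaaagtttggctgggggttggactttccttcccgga
Matches were counted in the 250 bases before the RefSeq start, of which the first 190 are shown for Acvr2b. The window of Acvr2b held 1 match to CAGAC, 3 matches to GGCGC and 3 matches to GGCCG, of which 2 overlap on opposite strands. That of Smad3 held 1 match to GGCCG, that of Tdgf1 held 1 match to CAGAC, and that of Nodal held none of these words. No window of the 4 held a FOXH1 word (TGTGGATT, TGTGTATT, TGTTGATT or TGTTTATT) or the SOX word CATTGT. Among 32851 RefSeq promoter windows of the same length, 42.2% held CAGAC, 32.0% held GGCGC, 30.4% held GGCCG, 3.93% held a FOXH1 word and 10.7% held CATTGT. A match describes letters and shows no binding.

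The knockouts were also compared directly. Between E3-KO and E1-KO 3 of the 9 members differed, where 25.8% of all tested genes were called, 9.41% higher and 16.4% lower. Nodal was higher in E3-KO, with a log2 difference of 0.48 (standard error 0.112, limma-trend adjusted p = 0.0133). Tdgf1 was lower in E3-KO (-0.49, standard error 0.108, limma-trend adjusted p = 0.0108), as was Acvr2b (-0.46, standard error 0.13, limma-trend adjusted p = 0.0302). Other ligand and receptor genes of the pathway, described below, did not all move in these directions. The ligand genes Inhbb, Gdf3 and Tgfb1 were called lower in E3-KO than in E1-KO (-1.04, -0.50 and -0.77). The receptor gene Acvr1b was also called lower (-0.47), while the co-receptor gene Tgfbr3 was called higher (0.92). For each of the 3 members called, the samples of the 2 groups did not overlap. The count was 0 without E1-KO replicate 1. It was 1 without E1-KO replicate 2, where Smad3 passed and these 3 did not, and 1 without E3-KO replicate 1, where Tdgf1 passed. Smad3 lay higher in E3-KO by 0.68 (limma-trend adjusted p = 0.0708), which passed with median-ratio scaling (limma-trend adjusted p = 0.0491) and with the replicate block (0.0242). Acvr2b also did not pass without either WT sample (limma-trend adjusted p-values 0.0577 and 0.0579), nor with quantile normalization, median-ratio scaling, the 50 highest genes left out of the scaling, all genes above 0 or the 4 samples alone (limma-trend adjusted p-values 0.051 to 0.0807).

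Between E2-KO and E1-KO limma-trend called 0 of the 9 members, with 0.834% of all tested genes called. Nodal, Lefty2, Tdgf1 and Skil had an unadjusted limma-trend p-value under 0.05. That threshold is looser than the one behind the 0.834%, and no share of all tested genes was taken at it. Lefty2 was lower in E2-KO by a log2 difference of -0.94 (95% interval -1.63 to -0.255, limma-trend adjusted p = 0.16). Between E3-KO and E2-KO limma-trend called 0 of 9, with 15.6% of all tested genes called and 5.48% of all tested genes higher in E3-KO. Lefty2 and Smad3 had an unadjusted limma-trend p-value under 0.05, again with no share of all tested genes at that threshold. Smad3 lay higher in E3-KO by 0.82 (95% interval 0.266 to 1.38, limma-trend adjusted p = 0.0533). It passed under 5 of the alternatives that kept all 8 samples or the 4 of the pair, among them quantile normalization (0.90, limma-trend adjusted p = 0.0412), median-ratio scaling (0.91, 0.0408) and the scaling that left out the 50 highest genes (0.93, 0.0418). The count in this comparison was 2 without E2-KO replicate 2 and 1 without either E1-KO sample. Over all tested genes, 1061 were called higher and 1850 lower in E3-KO than in E1-KO, against 1444 and 1309 with median-ratio scaling, and 618 and 1136 in E3-KO against E2-KO became 858 and 825. For Smad2 and Smad7 the 95% intervals of all 3 differences between knockouts lay within -0.423 and 0.275.

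**Figure D3:**
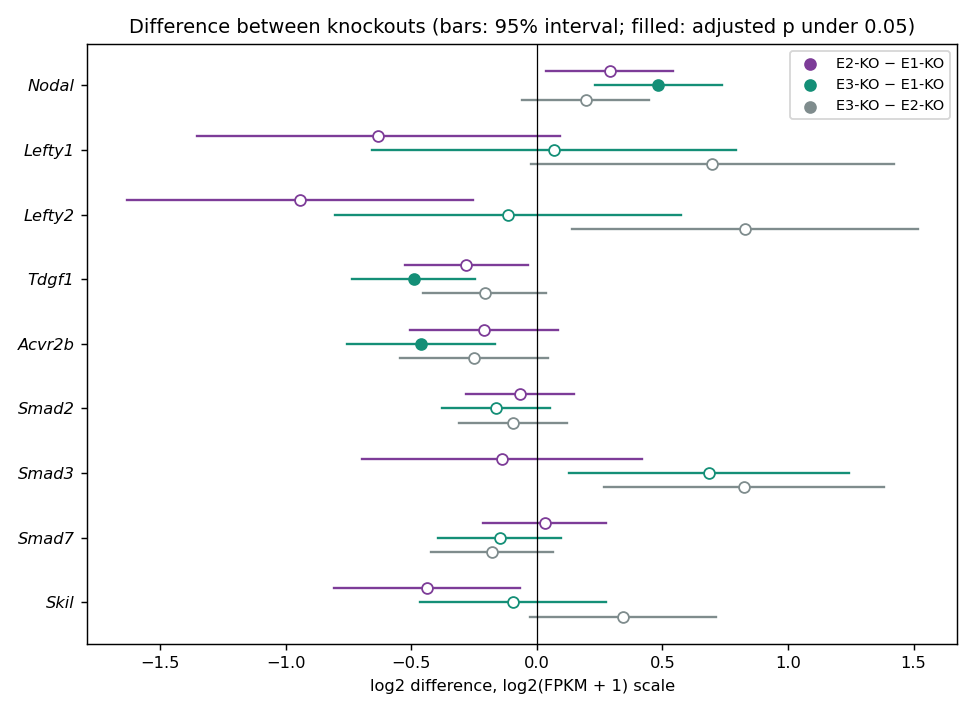
Log2 difference between knockouts on the log2(FPKM + 1) scale (horizontal axis) for the 9 genes, with bars for the 95% interval and filled points where the limma-trend adjusted p-value was under 0.05. The 3 filled points all belong to E3-KO against E1-KO: Nodal to the right of 0, and Tdgf1 and Acvr2b to the left.

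The other genes of the pathway were taken from a list of 61, of which 57 had a row in the tables and 39 passed the filter on low values. In E1-KO 6 of the 39 rose and 15 fell, in E2-KO 5 rose and 11 fell, and in E3-KO 9 rose and 8 fell. The called shares were 53.8%, 41% and 43.6%, beside 38%, 36.1% and 44.7% of all tested genes. Their median log2 fold changes were -0.26, -0.20 and -0.16.

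Among the ligands, Inhbb, which encodes the beta B subunit of activin and inhibin, rose in all 3 knockouts. It was at 2.22 and 2.17 FPKM in WT, 12.2 and 12.03 FPKM in E1-KO, 13.1 and 9.30 FPKM in E2-KO, and 5.68 and 5.05 FPKM in E3-KO, with log2 fold changes of 2.04, 1.92 and 0.99 (limma-trend adjusted p-values 8.73e-05, 0.00012 and 0.00137). All 6 knockout samples lay above WT, E1-KO and E2-KO further than E3-KO. Gdf3, a ligand that also signals through Cripto, was higher in E1-KO (0.34) as well as E2-KO (0.53), but had a value of -0.15 in E3-KO that did not pass and was 0.019 with median-ratio scaling. The call in E1-KO was lost with quantile normalization and without any 1 of the E1-KO or WT samples. Gdf3 lies on chromosome 6, and in E3-KO the median log2 fold change was -0.62 over the 536 tested genes there and -0.13 elsewhere. Tgfb1, the TGF-beta ligand gene, rose in E1-KO (0.91), a call that was lost without E1-KO replicate 2 or either WT sample. Furin, a protease that cleaves the Nodal precursor, fell in E1-KO (-0.51) and E2-KO (-0.47). Both calls were lost without either WT sample, that in E1-KO also without E1-KO replicate 2, and that in E2-KO also without E2-KO replicate 1 and with quantile normalization.

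Among the receptors, Acvr1b, the type I receptor that pairs with Acvr2b, fell in all 3 knockouts. Its level was 13.5 and 14.1 FPKM in WT, 8.07 and 8.43 FPKM in E1-KO, 6.04 and 6.75 FPKM in E2-KO, and 5.42 and 5.96 FPKM in E3-KO. The log2 fold changes were -0.68, -1.001 and -1.15 (limma-trend adjusted p-values 0.00273, 0.00054 and 0.000177). Acvr1b and Acvr2b had the same order of group means, with WT highest and E3-KO lowest. The share of all tested genes with this order was not taken. Of the TGF-beta receptors, Tgfbr1 fell in E1-KO (-0.38) and Tgfbr3, a co-receptor, rose in E3-KO (0.54). Tgfbr2 was under the filter and not tested, at 0.941 and 1.16 FPKM in WT and 0.166 to 0.343 FPKM in the knockouts. The call of Tgfbr1 was lost without any 1 of the E1-KO or WT samples and with quantile or median-ratio scaling, and that of Tgfbr3 without any 1 sample of E1-KO, E3-KO or WT, with all genes above 0 and with a pseudocount of 0.1.

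Among the SMAD partners, Smad4, the common partner of SMAD2 and SMAD3, fell in all 3 knockouts (-0.52, -0.71 and -0.71). Smad4 was at 36.8 and 43.6 FPKM in WT and at 21.8 to 28.6 FPKM in the 6 knockout samples. Foxh1, which encodes the factor that brings SMAD complexes to many Nodal targets, rose in all 3 (0.54, 0.83 and 0.49), from 19.2 and 20.9 FPKM in WT to 26.1 to 36.9 FPKM. Trim33, which encodes a chromatin reader that binds SMAD2 and SMAD3, fell in E2-KO (-0.50) and E3-KO (-0.35), and Yap1, a transcriptional co-activator of the Hippo pathway, fell in E1-KO (-0.48) and E2-KO (-0.41). The calls of Trim33 and Yap1 were lost without either WT sample. That of Trim33 in E3-KO was also lost without any 1 sample of E1-KO or E3-KO and under all 3 other scalings. For Yap1, the call in E1-KO was also lost without E1-KO replicate 1, and that in E2-KO without E2-KO replicate 2 or either E1-KO sample, with the replicate block, with the 4 samples alone, with median-ratio scaling, with all genes above 0 and without the trend. Smad4 in E1-KO did not pass without WT replicate 2 or E1-KO replicate 1, and Foxh1 in E1-KO and E3-KO did not pass without WT replicate 1 or replicate 1 of that knockout.

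Among the inhibitors inside the cell, Nedd4l, a ubiquitin ligase that acts on activated SMAD2 and SMAD3, rose in all 3 knockouts (0.61, 0.67 and 1.25), and Tgif2, a repressor that binds SMADs, fell in all 3 (-0.70, -0.60 and -0.64). Dact2 fell in E1-KO (-0.78) and E3-KO (-0.48), and Pmepa1, a membrane protein gene that is a target and an inhibitor of TGF-beta signals, rose in E3-KO (0.57). The calls of Nedd4l in E1-KO and E2-KO were lost without either WT sample, and also without either E1-KO sample or with all genes above 0 in E1-KO and without E2-KO replicate 1 in E2-KO. The call of Tgif2 in E2-KO was lost without WT replicate 2, that of Pmepa1 without replicate 1 of WT or E3-KO, and that of Dact2 in E3-KO without replicate 2 of WT or E3-KO. The last was lost with quantile and median-ratio scaling too.

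Target genes did not move one way. Gsc, the homeobox gene goosecoid of the organizer, fell in all 3 knockouts (-2.04, -1.304 and -1.51), from 6.86 and 7.39 FPKM in WT to 0.622 to 2.58 FPKM. Of the other 9 mesendoderm targets on the list, Eomes was the only one tested. It was at 4.07 and 4.60 FPKM in WT and lay above both in E1-KO (7.01 and 5.29 FPKM). In E2-KO it lay below both (3.36 and 3.93 FPKM), and in E3-KO it overlapped WT (2.92 and 4.76 FPKM). Eomes did not pass in any knockout. T (brachyury) was under the filter, at 1.70 and 2.09 FPKM in WT and 0.0363 to 0.348 FPKM in the knockouts. Mixl1, also under the filter, lay the other way, at 0.0928 and 0.16 FPKM in WT and 0.343 to 0.92 FPKM in the knockouts. Id1, better known as a target of BMP, rose in all 3 (1.87, 1.47 and 2.05), and Cdkn1a, a cell cycle inhibitor gene, fell in all 3 (-1.29, -1.36 and -0.78). Bhlhe40, which encodes a helix-loop-helix repressor, fell in E2-KO (-1.52) and E3-KO (-1.64, with the gene on chromosome 6). Ccn2, a connective tissue growth factor gene, fell in E1-KO (-0.93) and rose in E3-KO (1.296). Ccn2 was at 7.68 and 6.70 FPKM in WT, 3.58 and 2.99 FPKM in E1-KO, 6.87 and 5.71 FPKM in E2-KO, and 20.2 and 18.01 FPKM in E3-KO.

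**Figure D4:**
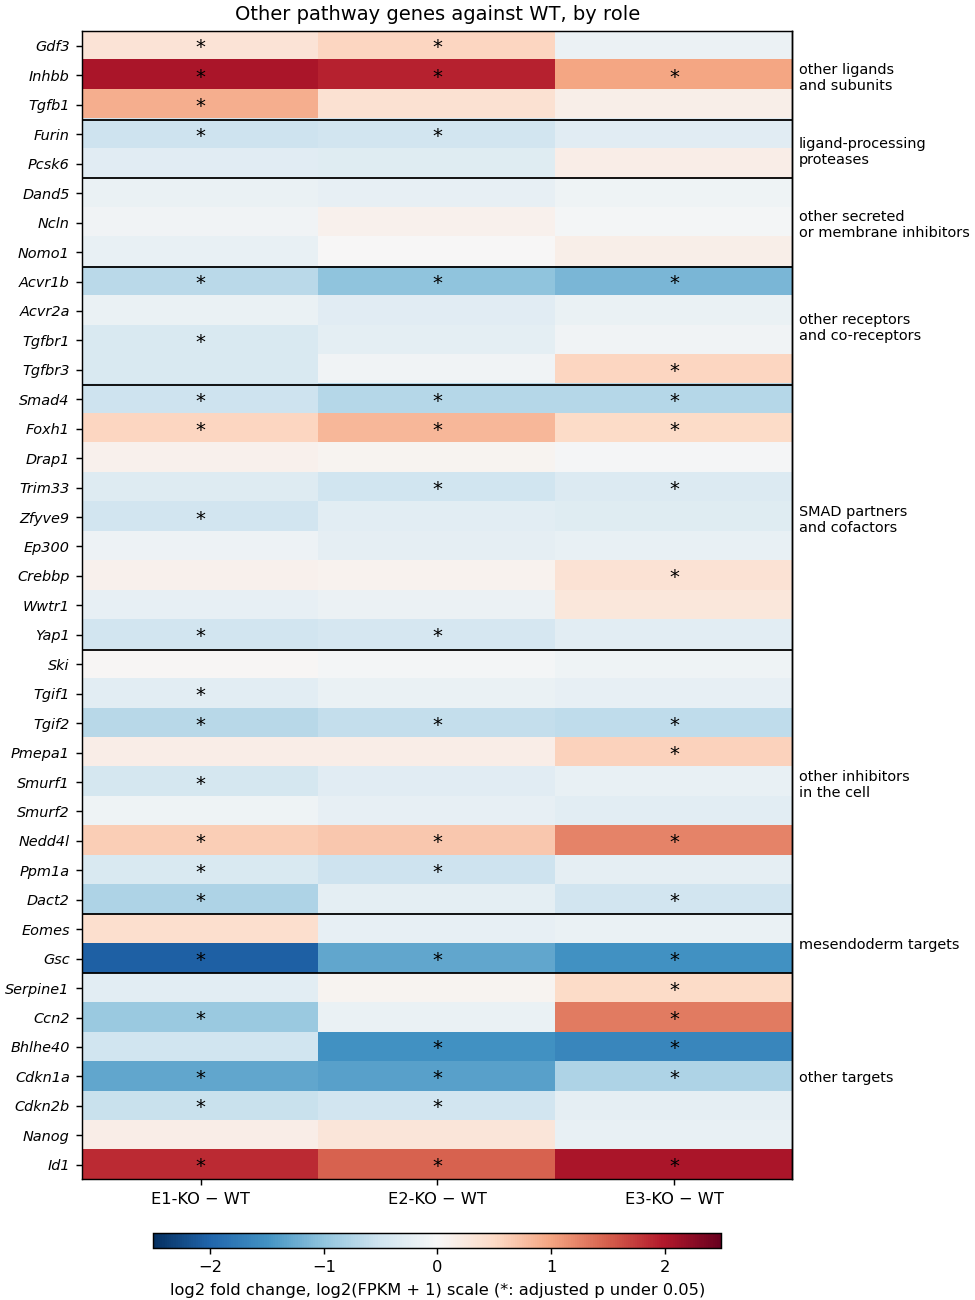
Log2 fold change against WT on the log2(FPKM + 1) scale (colour) of the 39 tested genes of the pathway list, in rows by role, in E1-KO, E2-KO and E3-KO, with stars where the limma-trend adjusted p-value was under 0.05. Inhbb and Id1 are the darkest red cells, and Gsc and Bhlhe40 the darkest blue.

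The replicates of a knockout differed from each other in the same way for 3 members and Bhlhe40, a pattern looked for after the values had been seen. Lefty2 was higher in replicate 1 of E1-KO by 0.78 on the log2(FPKM + 1) scale, and lower in replicate 1 of E2-KO and E3-KO (differences of -0.83 and -0.45). Lefty1 (0.50, -0.84 and -0.39) and Skil (0.45, -0.22 and -0.23) had the same signs. So did Bhlhe40 (0.59, -0.83 and -0.59). These were the 3 members and 1 of the other 39 genes with this order of replicates and at least 0.2 in each knockout, beside 84 of all 11271 tested genes (0.745%). By sign alone the order held for 3 of 9 members, 5 of 39 other pathway genes and 9.36% of all tested genes, Eomes among them (0.35, -0.18 and -0.55). Because the order was taken from the values of these members, their counts beside the shares of all genes describe the pattern and do not test it. Lefty1 and Lefty2 also share part of their sequence, so they are not separate observations. In WT the difference was 0.029 for Lefty2, 0.079 for Skil, -0.017 for Bhlhe40 and 0.67 for Lefty1.

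Other inhibitors and targets did not show this order, among them Smad7 (-0.13, 0.00281 and 0.00294) and Gsc (-0.57, -0.073 and 0.66). Nodal did not show it (-0.051, -0.00115 and 0.19), nor did Smad3, which was lower in replicate 1 of all 4 groups (-0.77, -0.53 and -0.058 in the knockouts and -0.24 in WT). Ranked by the smallest of the 3 differences, the 84 genes were led by the identifier ENSMUSG00000090766, Nova1, Ndufa4l2, Pls1, Slc16a3, Bhlhe40, Ndrg1, Cd27, Aire and Lefty2. Slc16a3 encodes a lactate transporter and Ndufa4l2 a mitochondrial protein. Relative depth in replicates 1 and 2 was 0.885 and 0.862 (E1-KO), 0.99 and 0.909 (E2-KO), and 0.787 and 1.01 (E3-KO). Its part in the pattern was not tested.

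**Figure D5:**
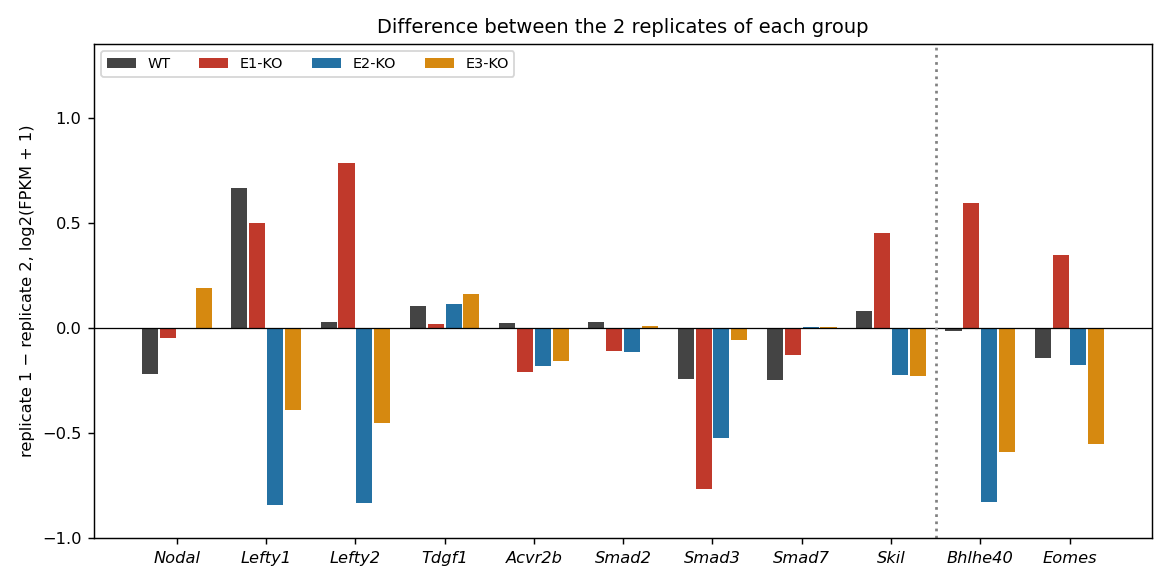
Replicate 1 minus replicate 2 on the log2(FPKM + 1) scale (vertical axis) in WT, E1-KO, E2-KO and E3-KO, for the 9 genes and, right of the dotted line, Bhlhe40 and Eomes. For Lefty1, Lefty2, Skil and the 2 genes on the right the E1-KO bar points up and the E2-KO and E3-KO bars point down.

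Genes whose 3 changes against WT were most like those of a member were ranked by the root mean square difference of the 3 log2 fold changes, over 11270 other genes, as a description. Closest to Lefty2 were Fxyd2 (0.232), Lcp1 (0.248) and Fxyd6 (0.273), each below the standard error of the Lefty2 changes themselves (0.305). Lefty1 had Cldn7 (0.0949), Dap and Smagp as its nearest genes, and Nodal had Pid1 (0.0178), Mmadhc and Vpreb1. For Tdgf1 these were Tnk2 (0.0069), Cdca2 and Ccdc71, and for Acvr2b they were Zdhhc18 (0.00861), Atp6v1g1 and Spsb1. Smad3 was nearest to Psap (0.0862), Arhgap9 and Atp2b4, Smad7 to Tmem51 (0.0113), Cmtm6 and Slc36a1, and Skil to Trib3 (0.0356), Spata1 and Frs2.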

How the data were processed

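Total RNA from 8 samples (4 groups, 2 replicates each) was sequenced as paired-end reads of 150 bases, per the labels' protocols. The authors deposited 1 table of gene identifiers and values per sample. The submitters' processing notes name Trimmomatic 0.36, TopHat2 2.0.12, Cufflinks 2.2.1 and the genome build mm9. The annotation and any scaling between samples are not given in the sources used here. No source states the unit. The values the authors deposited were read as FPKM, because Cufflinks writes that unit and the values are not whole.

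Each table had 18774 rows and 17812 identifiers, of which 660 were repeated. Rows follow chromosome, strand and position, so a repeated identifier kept the row that stood at its annotated position where 1 could be told (580 identifiers) and the other 80 identifiers were left out. Symbols came from a gene name table (17262 identifiers matched). Coordinates refer to GENCODE M21 (GRCm38), not to mm9.

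Genes averaging 1 FPKM or more were tested with limma-trend (limma 3.58.1, R 4.3.3) on log2(FPKM + 1), a scale that understates changes of low genes. All 8 samples entered 1 fit with 4 residual degrees of freedom, and calls were made at a two-sided Benjamini-Hochberg adjusted p-value under 0.05 over all tested genes. Absolute depth was unknown, so no counting interval was given. Pathway genes were named by a rule: per role, up to 4 genes called against WT, with the largest change. A gene of the pathway list is not reported here. Eomes, T, Mixl1, Tgfbr2 and the repeated differences between replicates were chosen after their values were seen. The members and lists were chosen with earlier results of these data known. Alternatives were the replicate block, the pair alone, 3 other scalings, other filters, a pseudocount of 0.1, no trend, other handling of repeated identifiers and leaving out each sample. Plots used matplotlib 3.10.9 (Python 3.11.15).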

Additional observations from a re-analysis of the deposited data

Results flagged for a closer look

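Direct tests between knockouts called 3 of the 9 members (33.3%), all between E3-KO and E1-KO, where 25.8% of all tested genes were called. The count is near that share and is not a trait of the members. Nodal was higher in E3-KO by 0.48 on the log2(FPKM + 1) scale, with both E3-KO samples above both E1-KO samples. Tdgf1 was lower in E3-KO, with a log2 difference of -0.49, and Acvr2b was lower as well, with -0.46, each with both E3-KO samples below both E1-KO samples. By limma-trend the adjusted p-values were 0.0133, 0.0108 and 0.0302. Without E1-KO replicate 1 none of the 3 passed, and Acvr2b passed under 9 of 19 alternatives. A difference of clone, culture or library batch between the lines cannot be told apart from the enhancer loss.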

How the results depend on the processing

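With 2 samples per group, several calls were lost when 1 sample was left out, which also lowers the residual degrees of freedom. In some of these fits the log2 fold change stayed the same, as for Tdgf1 in E3-KO without either E1-KO sample (-0.34). The share of all tested genes called in these fits was not taken, so the ranges below are not a trait of the members. Over the 8 fits that left out 1 sample, the number of members called ranged from 2 to 5 in E1-KO, 4 to 6 in E2-KO and 3 to 4 in E3-KO against WT, from 0 to 3 between E3-KO and E1-KO and from 0 to 2 between E3-KO and E2-KO, and it was 0 each time between E2-KO and E1-KO. The number between E3-KO and E2-KO was 1 instead of 0 with the replicate block, the 4 samples alone, quantile normalization, median-ratio scaling, or the 50 highest genes left out of the scaling, the gene being Smad3 each time. The titles give all groups the same replicate numbers, but same-numbered samples did not deviate together (correlations across genes of -0.042 to 0.089 over the 6 pairs of groups). The replicate block gave 5, 6 and 4 members against WT and 0, 4 and 1 between knockouts, in the order E2-KO and E1-KO, E3-KO and E1-KO, E3-KO and E2-KO, with Smad3 added in both of the last. No called value changed sign under any alternative. Uncalled values that did were Tdgf1 in E1-KO (-0.039 with quantile normalization), Smad2 in E3-KO (0.13 with quantile normalization, 0.17 with median-ratio scaling, 0.054 without the 50 highest genes), Smad2 between E3-KO and E2-KO (0.018) and Smad7 between E2-KO and E1-KO (-0.00668, both without the 50 highest genes), Skil between E3-KO and E1-KO (0.000635 with median-ratio scaling), Gdf3 in E3-KO (0.019 with median-ratio scaling) and Tgfbr1 in E3-KO (0.15 with quantile normalization, 0.073 with median-ratio scaling). Leaving out 1 sample gave ranges across 0 for Nodal in E3-KO (-0.049 to 0.17), Lefty1 (-0.18 to 0.32) and Lefty2 (-0.51 to 0.28) between E3-KO and E1-KO, Smad2 in E3-KO (-0.018 to 0.0073), Smad3 (-0.52 to 0.24) and Smad7 (-0.034 to 0.0955) between E2-KO and E1-KO, Skil in E1-KO (-0.39 to 0.056) and between E3-KO and E1-KO (-0.32 to 0.13), Tgfb1 in E3-KO (-0.22 to 0.50) and Tgfbr3 in E2-KO (-0.26 to 0.094). The cause was not tested. Lefty1 was not tested with a mean of at least 5 FPKM or with repeated identifiers left out.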
